A study of Danio rerio with 6 samples.

Results

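The globin and erythroid genes described here were chosen by name from the transcriptome of zebrafish (Danio rerio) larvae with and without a homozygous knockout of hspd1, the gene of the mitochondrial chaperonin HSP60. The list named 10 genes, and 8 of them matched a row among the 25859 genes of the count tables, which are 4 alpha-type embryonic globin genes (hbae1.1, hbae1.2, hbae1.3 and hbae3) and 4 other erythroid genes (klf1, gata1a, epb41b and slc4a1a). slc4a1a was found by its identifier, ENSDARG00000012881, whose symbol is SLC4A1. The beta-type genes hbbe1.1 and hbbe1.2 matched no symbol. The symbol table gives the human name HBE1 to 7 beta-type globin genes, which are described beside the listed genes by their identifiers. All 8 genes found had enough reads to be tested.

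Poly(A)-selected, non-stranded libraries were made from 3 pools of control larvae (hspd1+/+) and 3 pools of knockout larvae (hspd1−/−) at 5 days post fertilization (dpf), with 5 genotyped larvae in each pool. Both genotypes came from in-crosses of heterozygous carriers, and in both the tip of the tail fin was cut off for genotyping before the bodies were frozen. The labels name neither the mutant allele nor a drug treatment, and they do not say which mating gave which pool. The 6 libraries held 18517874 to 20331675 counts. hspd1 itself stood at 124 to 133 CPM (a gene's counts relative to the scaled total of its library) in the control pools and 67.9 to 82.3 CPM in the knockout pools, so the labels and the targeted transcript went the same way, with transcript remaining in every knockout pool.

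Red blood cells of fish keep their nucleus, and those that circulate in the young larva stem from a primitive wave of blood formation. They are filled with hemoglobin, a tetramer of alpha-type and beta-type globin chains that each hold a heme. The transcription factor GATA1 drives the erythroid programme, KLF1 activates globin and membrane genes within it, and the membrane is held by a skeleton of spectrin that is anchored through ankyrin to band 3 and through protein 4.1. In zebrafish, mutants of gata1a (vlad tepes), slc4a1a (retsina) and epb41b (merlot) are anemic.

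In the knockout pools 5 of the 8 genes fell and none rose (adjusted p under 0.05 in edgeR), where 2.54% of all 21602 tested genes were called lower, 1.47% higher and 4.01% either way. At an unadjusted p under 0.05, 7 of the 8 were lower, as were 8.81% of the tested genes, and 0 were higher. No gene of the 8 rose with DESeq2 or limma-voom. The genes that fell were slc4a1a, klf1, hbae1.1, hbae1.2 and hbae1.3. Reads of closely similar globin copies may have been split in the counting, so the 3 hbae1 calls may not be separate results. For 7 of the 8 genes all knockout pools lay below all control pools, as did 10.6% of the tested genes. The median log2 fold change (knockout over control) of the 8 was −0.79, and that of all tested genes was −0.01. The genes were listed with earlier results of these data known, so these counts are a description. Whole larvae were used, so that fewer red cells and less RNA per red cell cannot be told apart.

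**Figure D1:**
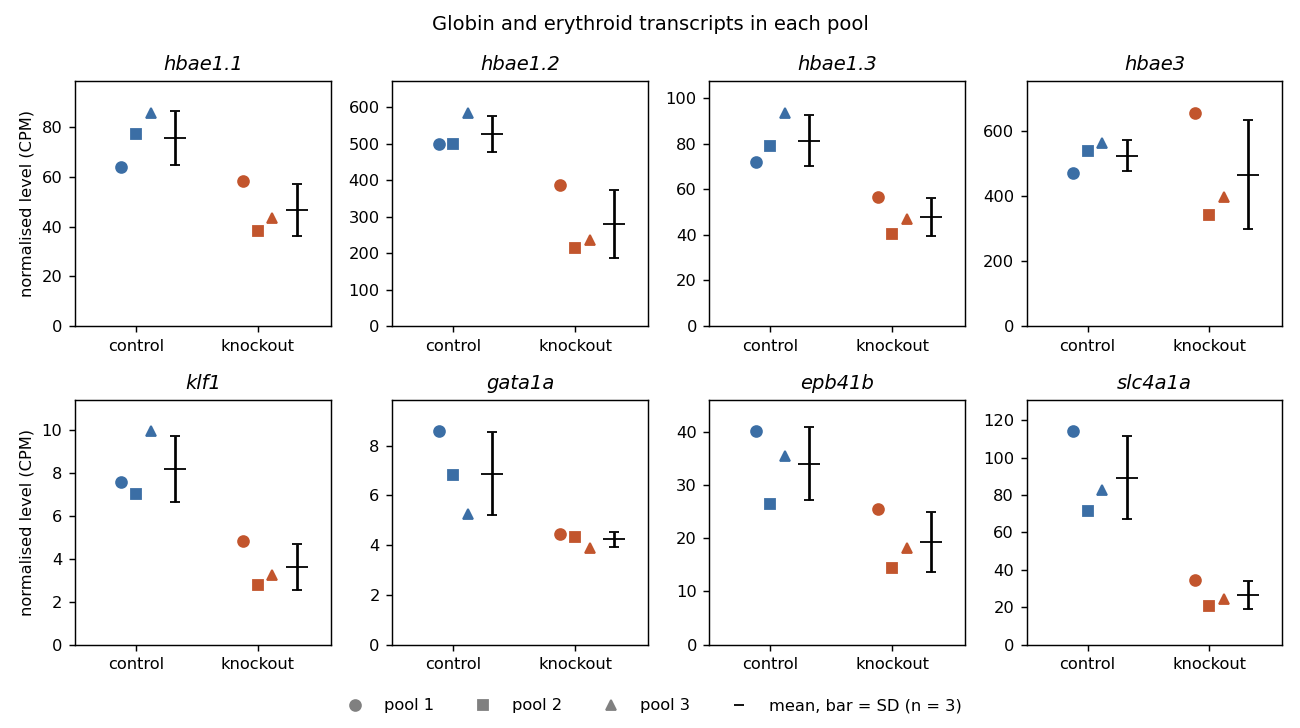
Normalised level (CPM, linear axes from 0) of the 8 genes in each pool, with controls in blue, knockouts in orange, a marker shape for each pool number, and a bar for the mean ± SD of 3 pools. Knockout pools lie below control pools for every gene but hbae3, where knockout pool 1 (655 CPM) is above all controls.

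The most reduced gene was slc4a1a, which codes for band 3, the chloride and bicarbonate exchanger of the red cell membrane. It stood at 114, 71.4 and 82.5 CPM in control pools 1, 2 and 3 and at 34.6, 20.6 and 24.2 CPM in knockout pools 1, 2 and 3. The highest knockout pool was thus well below the lowest control pool. The mean fell from 89.3 ± 22.1 CPM to 26.5 ± 7.28 CPM (SD, n = 3), which is 29.7% of the control mean, with a log2 fold change of −1.75 (SE 0.21, edgeR adjusted p = 0.00076). It passed the test under all 15 alternatives, at log2 fold changes from −1.995 to −1.52. The other gene with the symbol SLC4A1, ENSDARG00000024560, averaged 10.6 ± 3.19 CPM in control pools and 12.04 ± 1.34 CPM in knockout pools, which overlapped.

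No other red cell membrane gene among those tested passed with edgeR. epb41b, which codes for protein 4.1, the link between spectrin, actin and the membrane, stood at 40.1, 26.5 and 35.5 CPM in the control pools and 25.6, 14.5 and 18.1 CPM in the knockout pools. The groups came close but did not overlap. The log2 difference was −0.81 (95% confidence interval −1.27 to −0.36) and missed the threshold (edgeR adjusted p = 0.0577), but DESeq2 called it (0.00248), as did edgeR once knockout pool 1 (0.0105) or control pool 2 (0.0325) was left out. Of 16 tested genes of the red cell membrane and its skeleton outside the 8, none passed with edgeR, DESeq2 or limma-voom, and 1, ANK1 (ENSDARG00000059093), was lower at an unadjusted p under 0.05, with 0 higher. Their median log2 fold change was −0.04. Of all tested genes, 8.81% were lower at an unadjusted p under 0.05 in edgeR. SPTB, the erythroid beta-spectrin, averaged 99.3 ± 13.7 CPM in control pools and 88.1 ± 8.66 CPM in knockout pools. RHAG, an ammonium channel of the red cell's Rhesus complex, had 209, 232 and 237 CPM in the control pools and 256, 211 and 199.9 CPM in the knockout pools, a log2 difference of −0.02 (95% confidence interval −0.29 to 0.25) whose sign turned with upper-quartile scaling. Some of these membrane genes, spectrin and ankyrin among them, are also active in muscle or nerve. Whether slc4a1a differed from them in its response was not tested.

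The erythroid regulators in the list are klf1 and gata1a, which both had few reads. klf1 stood at 7.61, 7.04 and 9.95 CPM in the control pools and 4.82, 2.77 and 3.26 CPM in the knockout pools, from 53 to 188 counts per library. All knockout pools were lower than all controls. It fell to 44.1% of the control mean, with a log2 fold change of −1.18 (SE 0.22, edgeR adjusted p = 0.0112). Its call was lost when control pool 3 (0.061) or knockout pool 2 (0.0521) was left out. gata1a stood at 8.58, 6.82 and 5.24 CPM in the control pools and 4.46, 4.34 and 3.89 CPM in the knockout pools. Here the knockout pools lay close together and the spread was among the controls. The log2 difference of −0.70 (95% confidence interval −1.12 to −0.28) missed the threshold (edgeR adjusted p = 0.0767); leaving out control pool 3 (0.0381) or using DESeq2 (0.0486) brought it under.

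Of 15 tested genes for further erythroid transcription factors and cofactors, none passed with edgeR, and 7 were lower and 0 higher at an unadjusted p under 0.05. DESeq2 called 1, TRIM33 (named moonshine in zebrafish, a cofactor needed for blood formation), and limma-voom called 0. All 15 had a log2 fold change below 0, with a median of −0.39. The number was 14 with upper-quartile scaling and 13 without control pool 3 or without knockout pool 3. For 6 of the 15 the knockout pools lay below the control pools. Of all tested genes, 50.9% had a log2 fold change below 0 and 10.6% had all knockout pools below all control pools. At an unadjusted p under 0.05 in edgeR, 8.81% of all tested genes were lower. TAL1, a founder factor of the blood lineage, stood at 28.4, 24.4 and 25.1 CPM in the control pools and 19.1, 21.0 and 19.4 CPM in the knockout pools, a log2 difference of −0.39 (edgeR adjusted p = 0.0738). ZFPM1, the cofactor of GATA1 known as FOG1, stood at a log2 difference of −0.51 (edgeR adjusted p = 0.0732). LMO2 and NFE2 stood at log2 differences of −0.16 and −0.05, with overlapping pools. LDB1 (ENSDARG00000010137), the most read of them, averaged 148 ± 4.15 CPM in control pools and 140 ± 8.34 CPM in knockout pools. Several of these factors also act in the nervous system or in vessels.

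Of the alpha-type embryonic globin genes, whose products pair with beta-type chains in larval hemoglobin, the 3 hbae1 genes passed the test and hbae3 did not; the difference between them was not tested. The hbae1 genes fell to 53.0% to 61.6% of their control means, while hbae3 stood at 88.6% of its control mean with overlapping groups. hbae1.2 stood at 499, 499 and 584 CPM in control pools 1, 2 and 3 and at 388, 215 and 237 CPM in knockout pools 1, 2 and 3. hbae1.2 was thus lower in every knockout pool, with pool 1 between the controls and the other knockouts. Its mean went from 527 ± 49.2 CPM to 279.8 ± 94.1 CPM, a log2 fold change of −0.91 (SE 0.20, edgeR adjusted p = 0.0283).

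The less read copies hbae1.1 and hbae1.3 had the same order of knockout pools. hbae1.1 stood at 64.1, 77.2 and 85.7 CPM in the control pools and 58.2, 38.0 and 43.6 CPM in the knockout pools, with a log2 fold change of −0.70 (SE 0.16, edgeR adjusted p = 0.0416). hbae1.3 stood at 71.8, 78.9 and 93.5 CPM in the control pools and 56.5, 40.3 and 46.8 CPM in the knockout pools, with a log2 fold change of −0.77 (SE 0.15, edgeR adjusted p = 0.0133). In both genes knockout pool 1 came near the lowest control pool without reaching it. These calls changed when 1 pool was left out. The number called lower among all tested genes changed too, from 549 with all pools to between 360 and 635. With control pool 3 or either of knockout pools 2 and 3 left out, none of the 3 genes passed with edgeR (adjusted p from 0.0526 to 0.186), although all stayed below 0, and without control pool 2 only hbae1.3 did (hbae1.1 0.1275, hbae1.2 0.066). hbae1.1 also did not pass with upper-quartile scaling (0.0658).

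hbae3 stood at 469, 539 and 563 CPM in the control pools and 655, 340.0 and 398 CPM in the knockout pools. Knockout pool 1 had the highest level of all 6 pools, and the other knockout pools had the lowest. The log2 difference was −0.17 (95% confidence interval −0.64 to 0.29, edgeR adjusted p = 0.75). Without knockout pool 1 it was −0.51 and still missed the threshold (0.0689), and without knockout pool 2 it was 0.02.

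The reads of these genes were also set against each other within each pool, a measure that does not depend on how the libraries were scaled and for which no test was run. Of the reads of the 4 alpha-type genes, hbae1.2 gave 45.2%, 41.8% and 44.1% in the control pools and 33.5%, 34.0% and 32.6% in the knockout pools. hbae3 gave 42.5%, 45.2% and 42.4% in the control pools and 56.6%, 53.7% and 54.9% in the knockout pools. The groups did not overlap in either share, and on this measure knockout pool 1 lay with the other knockout pools. The shares of a pool sum to a fixed whole, so the lower share of hbae1.2 and the higher share of hbae3 are not separate results. The share of hbae1.3 was also lower in every knockout pool (4.88% to 6.46% against 6.50% to 7.05%), and that of hbae1.1 overlapped between the groups. As a sum, the 4 genes made 1105, 1194 and 1326 CPM in the control pools and 1157, 634 and 725 CPM in the knockout pools, so that the summed level overlapped between groups through knockout pool 1.

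**Figure D2:**
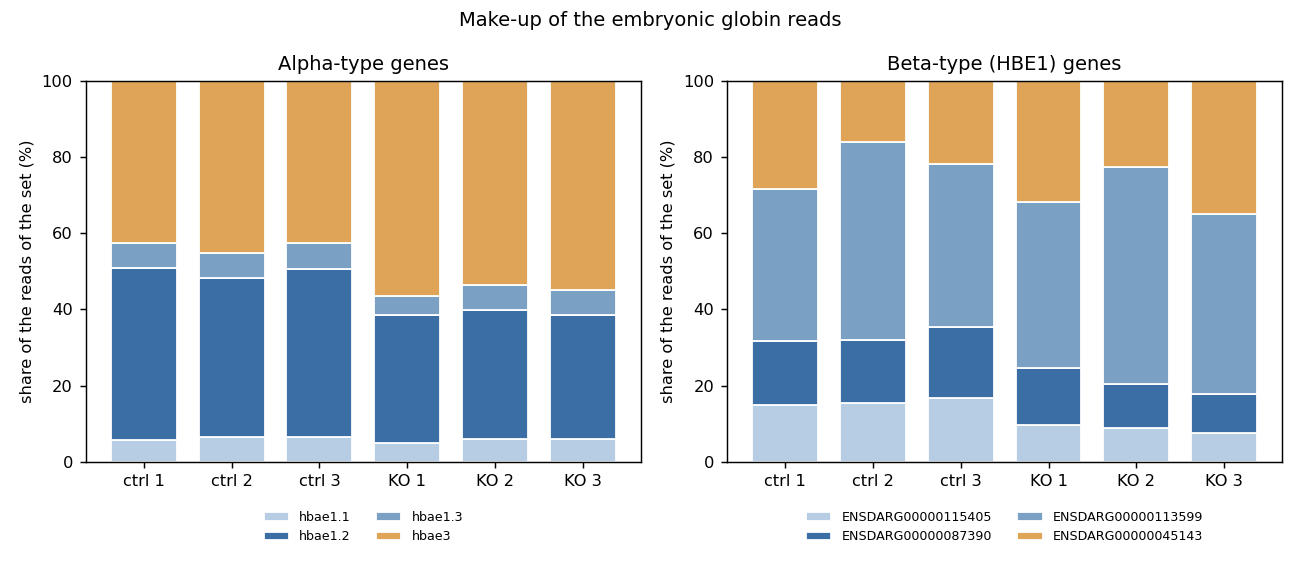
Share of reads (%) that each gene gave within the 4 alpha-type genes (left) and within the HBE1 genes (right), for 3 control (ctrl) and 3 knockout (KO) pools, with each bar summing to 100. hbae3 fills 42.4% to 45.2% of the alpha-type reads in controls and 53.7% to 56.6% in knockouts.

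Among the beta-type genes 1 passed, where 2.54% of all tested genes were called lower. Of the 7 genes with the symbol HBE1, 4 had enough reads to be tested and 3 had at most 1 read in any pool. ENSDARG00000115405 stood at 154, 175 and 210 CPM in the control pools and 118, 54.5 and 59.8 CPM in the knockout pools, and it fell by a log2 fold change of −1.22 (SE 0.26, edgeR adjusted p = 0.0229). The call was lost when any 1 of pools 2 and 3 of either genotype was left out (0.0546 to 0.106), and with DESeq2 (0.051). ENSDARG00000087390 stood at 175, 188 and 238 CPM in the control pools and 180, 70.0 and 80.4 CPM in the knockout pools. Its log2 difference of −0.86 missed the threshold (edgeR adjusted p = 0.177); with knockout pool 1 left out it was −1.41 (0.000616). The most abundant of them by reads, ENSDARG00000113599, and ENSDARG00000045143 stood at log2 differences of −0.31 and 0.09, with overlapping groups, and the second turned to −0.27 without knockout pool 1 and to −0.07 without control pool 2. Of the reads of the HBE1 genes, ENSDARG00000115405 gave 14.8% to 16.6% in the control pools and 7.53% to 9.71% in the knockout pools, and ENSDARG00000087390 gave 16.5% to 18.8% and 10.1% to 14.8%, so that both shares were lower in every knockout pool. Reads of closely similar globin copies, alpha-type or beta-type, may have been split between them in the authors' counting, so the values of single copies are uncertain.

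In the assembly GRCz12tu of RefSeq, the embryonic genes stand at the end of a row that opens with the adult genes hbaa2, hbba2, hbaa1 and hbba1. In that row ba1l lies between hbba2 and hbaa1, and si:ch211-5k11.8 lies between hbba1 and the embryonic genes. The embryonic genes follow each other in the order hbbe1.1, hbae1.1, hbbe1.2, hbae1.2, hbbe1.3, hbae1.3 and hbae3. In this order hbae3 stands beside the hbae1 repeats and outside the alternation with beta-type genes. Whether the position of a gene bears on its call was not tested, and the counts use another build, GRCz11. The adult alpha-type genes were hardly read at 5 dpf, with 1 to 4 counts of hbaa1 per library and 1 count of hbaa2 in 1 library. hbae4 and hbae5 lie on another chromosome, in the order hbae4, hbbe3, hbbe2 and hbae5. hbae5 stood at 82.6, 21.0 and 45.85 CPM in the control pools and 68.7, 11.97 and 58.6 CPM in the knockout pools, and hbae4 at 1.69 to 2.99 CPM and 1.63 to 3.37 CPM. In both the groups overlapped, and the log2 differences (−0.10 and 0.00) did not pass with edgeR (0.951 for hbae5). hbbe3 had 0 reads. Of 5 tested globin genes of other cells, such as myoglobin (mb) of muscle and neuroglobin (NGB), none passed with edgeR, DESeq2 or limma-voom and 0 had an unadjusted p under 0.05.

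Knockout pool 1 was the highest knockout pool for all 8 genes, by little in gata1a, and pool 2 was the lowest for all but gata1a. The further erythroid transcription factors did not share this order. Knockout pool 1 was the lowest knockout pool for some, such as TAL1 (19.1, 21.0 and 19.4 CPM in knockout pools 1, 2 and 3). It was the highest for others, such as LMO2 (10.7, 7.94 and 8.51 CPM). Averaged over the 4 globin genes, the log2 level relative to the control mean was −0.25, −0.97 and −0.78 in knockout pools 1, 2 and 3, and over the other 4 genes it was −0.76, −1.36 and −1.20. The control pools lay between −0.16 and 0.16 for the globins and between −0.20 and 0.22 for the other genes. Without knockout pool 1, 6 of the 8 genes passed, and without knockout pool 2 only slc4a1a did. Without control pool 3 or knockout pool 3 it was 2 genes, and without control pool 2 it was 4. Among all tested genes, 549 were called lower with all pools. That number was 487, 394 and 411 without knockout pools 1, 2 and 3, and 635, 361 and 360 without control pools 1, 2 and 3. The reads of slc4a1a per 1000 reads of the 4 globin genes were 103, 59.8 and 62.2 in the control pools and 29.9, 32.6 and 33.4 in the knockout pools. This ratio was lower in every knockout pool, and the knockout pools lay close together in it.

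**Figure D3:**
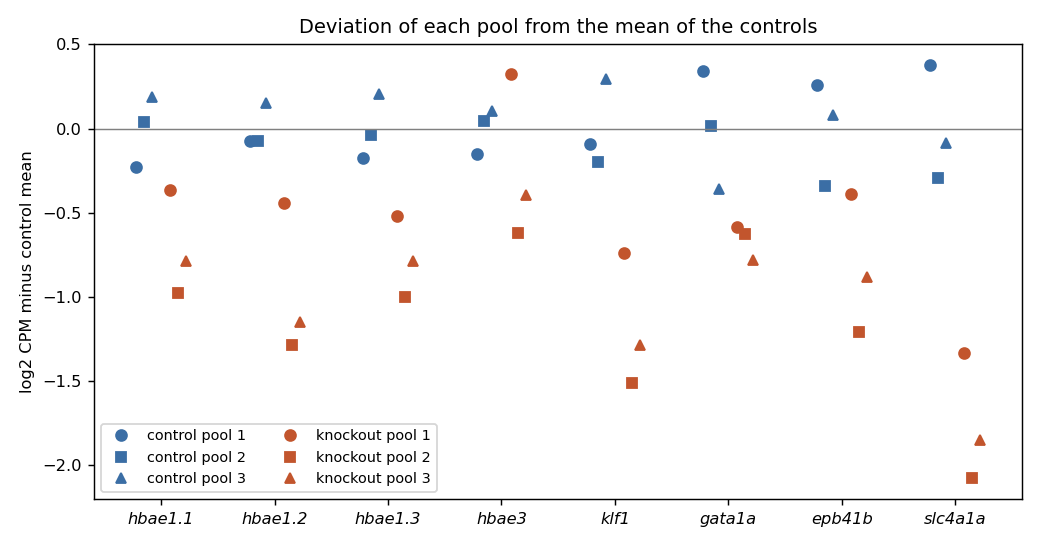
Log2 CPM of each gene in each pool minus the mean of the 3 control pools, with controls in blue, knockouts in orange and a marker shape for each pool number. Knockout pool 1 (orange circles) is the highest knockout pool for every gene, and slc4a1a has the lowest values.

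**Figure D4:**
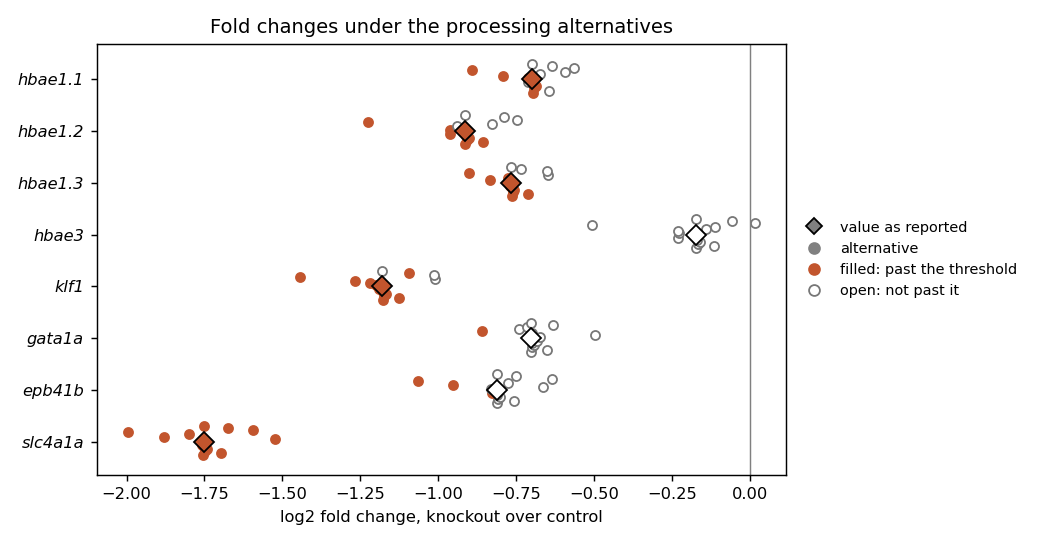
Log2 fold change of the 8 genes as reported (diamonds) and under 15 other settings of the processing (circles), filled in orange where the gene passed the threshold. slc4a1a passed in all of them and hbae3 in none.

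Of 18 tested genes of heme synthesis and iron supply, 4 fell and 1 rose. Of all tested genes 2.54% were called lower and 1.47% higher. The libraries were of whole larvae, so the reads of these genes cannot be assigned to red cells. CPOX and PPOX, late enzymes of the pathway, fell with log2 fold changes of −0.96 and −0.93, and UROD, from its middle, with −0.82. The number that fell was 3 when control pool 3 or knockout pool 2 was left out. alas2, the erythroid form of the first enzyme, stood at 103, 64.0 and 84.7 CPM in the control pools and 59.8, 27.8 and 41.7 CPM in the knockout pools. Its groups did not overlap, but its log2 difference of −0.96 did not pass (edgeR adjusted p = 0.0644). It passed when knockout pool 1 (0.011) or control pool 2 (0.0436) was left out. The gene that rose was SLC25A38 (ENSDARG00000059805), a mitochondrial glycine carrier, from 3.85 ± 1.96 CPM to 9.57 ± 0.99 CPM, and its call was lost on leaving out control pool 3 or either of knockout pools 1 and 2 (0.0685 to 0.11). The other gene of that name, ENSDARG00000074533, averaged 24.9 ± 0.252 CPM in control pools and 23.5 ± 2.94 CPM in knockout pools. Without knockout pool 1, 8 genes of this list fell, among them alas2, ALAD, FECH and tfr1a, the erythroid transferrin receptor.

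Other red cell proteins gave a mixed result. hemgn, which codes for hemogen, a nuclear protein of erythroid cells, stood at 30.3, 30.6 and 41.1 CPM in the control pools and 27.1, 18.3 and 19.1 CPM in the knockout pools. The groups did not overlap, and its log2 difference of −0.66 did not pass (edgeR adjusted p = 0.0651) unless knockout pool 1 was left out (0.0116) or DESeq2 was used (0.00835). cahz, the carbonic anhydrase of fish red cells, had overlapping groups and a log2 difference of −0.55 (edgeR adjusted p = 0.117). Of 11 tested red cell enzymes and related genes, 2 fell and 1 rose, where 2.54% of all tested genes were called lower and 1.47% higher. In libraries of whole larvae their reads cannot be assigned to red cells. PKLR, the pyruvate kinase of red cells and liver, fell from 135 ± 27.4 CPM to 48.2 ± 1.69 CPM. CAT, the catalase, fell with a log2 fold change of −0.53, and NT5C3A, a pyrimidine nucleotidase of red cells, rose with 0.56. Both calls were lost on leaving out any 1 of several pools. CAT lost its call on leaving out pool 2 or 3 of either genotype and with upper-quartile scaling (0.0718 to 0.214), and NT5C3A on leaving out control pool 2, control pool 3 or knockout pool 2 (0.0665 to 0.0924). The number that fell was 4 with DESeq2 or without knockout pool 1, when cahz and hemgn joined it.

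The epoa transcript, for the hormone that drives red cell formation, had 40 to 56 counts per library and no called change. epoa, which codes for erythropoietin, averaged 2.42 ± 0.37 CPM in control pools and 2.35 ± 0.233 CPM in knockout pools, a log2 difference of −0.04 (95% confidence interval −0.49 to 0.40) whose sign turned with upper-quartile scaling. Its receptor gene EPOR averaged 2.65 ± 0.524 CPM and 2.37 ± 0.286 CPM, a difference of −0.16 (95% confidence interval −0.63 to 0.30). Of 16 tested genes of the erythropoietin pathway and of the response to low oxygen, 1 passed with edgeR. VEGFA (ENSDARG00000103542), a vessel growth factor, rose with a log2 fold change of 0.57. Its call was lost on leaving out any pool but control pool 1 (0.0532 to 0.162). At an unadjusted p under 0.05 in edgeR, 2 of the 16 were lower, jak2a (log2 difference −0.39) and EGLN3 (−1.16). Higher there were 2, this VEGFA gene and PFKFB3 (0.92). PFKFB3 passed without control pool 1 (edgeR adjusted p = 0.00685), where 346 of all tested genes were called higher. Of all tested genes, 8.81% were lower at the unadjusted threshold, and the share higher was not computed. Among 7 genes of heme and hemoglobin clearance, hpxa, the hemopexin made by the liver, fell from 589, 133 and 379 counts in the control pools to 22, 23 and 21 counts in the knockout pools, a log2 fold change of −4.05 (edgeR adjusted p = 0.000643), and hp, the haptoglobin gene, stood at −0.01. For both lists, 2.54% of all tested genes were called lower and 1.47% higher.

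Markers of the other cells of blood and vessel were measured in the same libraries. Of 7 tested thrombocyte genes, the nucleated counterpart of platelets, none passed with edgeR, DESeq2 or limma-voom and 0 had an unadjusted p under 0.05. Their summed level was 48.8 to 60.3 CPM in the control pools and 51.9 to 57.2 CPM in the knockout pools, and 0 of the 9 matched genes were without reads. Of 6 genes of blood stem and progenitor cells none passed with those tools, with 2, IKZF1 and GATA2, lower at an unadjusted p under 0.05. The progenitor sum was 59.2 to 66.4 CPM in the controls and 51.7 to 61.0 CPM in the knockouts. Of 13 tested macrophage genes 1 rose, an MFAP4 gene (ENSDARG00000088745, log2 fold change 0.76), a call lost on leaving out control pool 3 or knockout pool 2 (0.0533 and 0.061). At an unadjusted p under 0.05 in edgeR, 3 of the 13 were higher and 0 lower. Of all tested genes, 1.47% were called higher at the adjusted threshold, and 8.81% were lower at the unadjusted one. The share of all tested genes that were higher at the unadjusted threshold was not computed. The macrophage sum was 306 to 321 CPM in the controls and 262 to 342 CPM in the knockouts.

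Of 6 neutrophil genes none passed with edgeR, DESeq2 or limma-voom. mmp13a and MMP9 were higher at an unadjusted p under 0.05 in edgeR. The share of all tested genes higher at that threshold was not computed, so this count has no background beside it. MMP9 passed with edgeR without knockout pool 1 (0.0399), a setting in which 339 of all tested genes were called higher. The neutrophil sum was 40.3 to 49.5 CPM in the controls and 45.5 to 54.9 CPM in the knockouts. Of 17 endothelial genes 1 rose, plvapa, a protein of vessel wall pores, from 9.46 CPM to 14.5 CPM, and it did not pass without knockout pool 2 (0.0635). Called higher were 1.47% of all tested genes. The endothelial sum was 265 to 299.7 CPM and 295 to 326 CPM. In these 5 lists 0 genes fell with edgeR, DESeq2 or limma-voom, and the lists' median log2 fold changes ran from −0.06 to 0.32. Whether the erythroid genes differed from them was not tested.

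**Figure D5:**
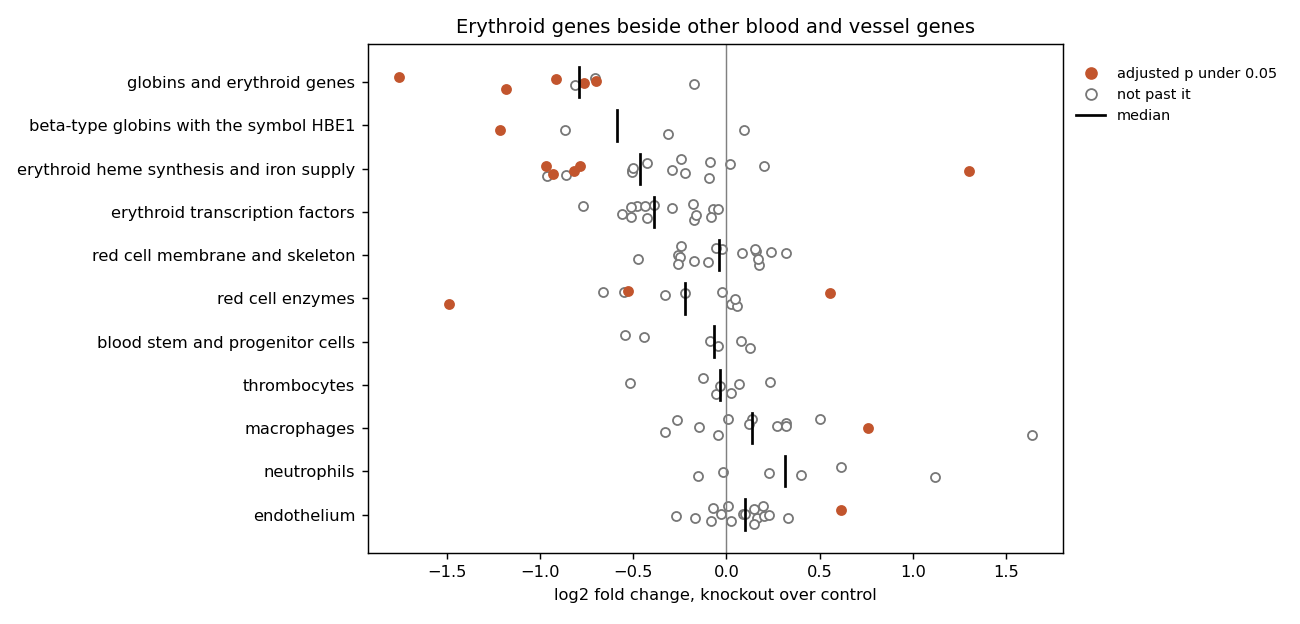
Log2 fold change (knockout over control) of the tested genes of each list, with orange points for an adjusted p under 0.05, open points for the rest and a black line at the list's median. The median of the globin and erythroid genes is −0.79, and those of the 5 lists of other blood and vessel cells lie between −0.06 and 0.32. Of the other red cell lists, the membrane genes have a median of −0.04 and the enzymes −0.22. The transcription factors have −0.39, the heme and iron genes −0.46 and the HBE1 genes −0.59.

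Likeness to the summed level of the 4 globin genes was measured for 15281 genes with a symbol and a mean of at least 5 CPM, as Pearson's r of log2 CPM over the 6 pools. The closest was the HBE1 gene ENSDARG00000087390 (r = 0.997), followed by SIX6 (0.988), crb3a (0.986), ddt (0.986), GPM6B (0.986) and CDC42EP4 (0.983). The last 5 are in none of the erythroid lists, and none of the 6 passed the test between genotypes with edgeR (adjusted p from 0.177 to 0.707). In all, 125 of these genes (0.818%) had an r of at least 0.9. The 6 pools share their genotype groups, so that a high r over so few pools is a description of these libraries.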

How the data were processed

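Poly(A) RNA of 6 pools of larvae was sequenced as paired reads of 100 bases, per the labels' protocols. The deposited values are estimated counts per Ensembl gene, stored as whole numbers, and the build is GRCz11. The tools named, per the submitters' processing notes, are FastQC, Trim Galore, DESeq2 and Salmon; neither their versions nor their roles are given in the sources used here. Symbols came from a table that covers 23598 of 25859 genes. The counts carry no strand, so a gene and its antisense partner cannot be told apart.

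Genes were kept with edgeR's filterByExpr (0.0516% of counts removed) and scaled by TMM (factors 0.970 to 1.03). Genotypes were compared with edgeR 4.0.16 (R 4.3.3), quasi-likelihood test, Benjamini-Hochberg adjustment over 21602 genes and a threshold of 0.05. Each SE was derived as |log2 fold change| divided by the root of the F statistic, and intervals use the test's degrees of freedom. The test was tried on simulated data with 100 genes changed by a log2 fold of 1 and 100 by 2. It recovered 82 and 96 of them, and 17 of its 195 calls were false. Log2 CPM used a prior count of 2. Pools of a genotype differed beyond sampling noise (chi-square per degree of freedom 7.22 to 20.6), so none was a repeat deposit. The labels describe 3 mating sets but tie no pool to one, so it is not known whether the pools are independent. Each p-value sets the genotype difference against the variation between pools of a genotype, estimated with information shared across genes.

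Alternatives were RLE and upper-quartile scaling, library sizes without blood globins, all genes kept, a minimum of 1 CPM in 3 pools, a threshold of 0.01, the replicate number as a block, DESeq2 1.42.0, limma-voom (limma 3.58.1) and each pool left out in turn. The 8 genes described and the other lists, 15 lists in all, were chosen with earlier results of these data known. Some of their symbols, HBE1 among them, were added once the symbol table was at hand, and 39 of 179 entries matched no gene. Named genes outside the 8 are those with the smallest p in each list past the threshold, up to 4, or otherwise up to 2 of the highest mean, together with epoa, EPOR, alas2, hemgn and SPTB and the 6 genes whose pattern was most like the summed globin genes, of which 4 of the 6 listed were found. TAL1, ZFPM1, LMO2, NFE2, TRIM33, ANK1, cahz, hp, mmp13a, MMP9, IKZF1, GATA2, ALAD, FECH, tfr1a, jak2a, EGLN3 and PFKFB3 were named after their values were seen. So were the HBE1 genes and the other globins. Some named genes are not reported here.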

Additional observations from a re-analysis of the deposited data

How the results depend on the processing

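Under RLE scaling, library sizes without blood globins, no filter, the filter of 1 CPM in 3 pools and limma-voom, the counts of genes called lower did not move. Of the 8 genes 1 passed at a threshold of 0.01, slc4a1a, and with DESeq2 7 passed. Leaving out 1 pool gave 1 to 6. For the globins the count was 3, with 0 at 0.01, 2 with upper-quartile scaling and 0 to 3 without 1 pool. For the other 4 genes it was 2, with 1 at 0.01, 4 with DESeq2 and 1 to 3 without 1 pool. Of the HBE1 genes 0 passed at 0.01 or with DESeq2, and 0 to 2 without 1 pool. Of the heme and iron genes 3 to 8 fell without 1 pool. Of the transcription factors 1 passed with DESeq2, and 0 without any 1 pool. Among all tested genes, 549 fell with the settings as reported, 288 at 0.01, 709 with DESeq2 and 360 to 635 without 1 pool. The cause of these moves was not tested.

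With the replicate number as a block, 2 globins and 3 other genes passed, still 5 in all, and over all genes 251 rose and 487 fell against 317 and 549. hbae1.1 was lost (edgeR adjusted p = 0.0784), as were CAT (0.0901) and VEGFA (0.0521, ENSDARG00000103542), and epb41b (0.00597) and alas2 (0.00258) passed. The labels tell of 3 mating sets but do not tie the numbers to them, and deviations of same-numbered pools correlated at −0.20, 0.10 and −0.07.

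Signs turned for genes that did not pass. hbae3 ran from −0.51 to 0.016 when 1 pool was left out, above 0 without knockout pool 2 alone. ENSDARG00000045143 ran from −0.27 (without knockout pool 1) to 0.41, and was −0.075 without control pool 2. RHAG (ENSDARG00000019253) was 0.031 with upper-quartile scaling and ran from −0.14 to 0.064 when 1 pool was left out. epoa (ENSDARG00000055163) was 0.0073 with upper-quartile scaling and ran from −0.11 to 0.10. Upper-quartile scaling moved the median of all genes from −0.01 to 0.04. Counts of klf1 and gata1a, 53 to 188 per library, limit their precision.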

Other observations

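The levels of hbae5 and of the HBE1 gene ENSDARG00000045143 varied between pools in a way that the genotype did not follow. ENSDARG00000045143 stood at 295, 184 and 274 CPM in control pools 1, 2 and 3 and at 387, 138 and 278 CPM in knockout pools 1, 2 and 3. In both genes pool 2 was the lowest of each group and pool 1 the highest. In hbae5 the highest control pool had 82.6 CPM and the lowest 21.0 CPM.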
